A study of Mus musculus with 6 samples.

Results

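The genes described here are 10 genes of the Hippo-YAP pathway, measured among 24016 genes in basal cells sorted from the mouse esophagus. They were chosen by symbol for their role: the transcriptional co-activators Yap1 and Wwtr1 (TAZ), the DNA-binding factors Tead1, Tead3 and Tead4, the kinases Lats1 and Lats2, and Ctgf, Cyr61 and Amotl2, which are used as readouts of YAP activity. All 10 had a row in the expression table. The mice carried Krt15-CrePR1, a Cre recombinase under the Krt15 promoter that becomes active when RU486 (mifepristone) is given, together with R26mTomato/mGFP, a reporter that switches from membrane Tomato to membrane GFP after recombination. All received 1 mg of RU486, and basal cells were taken 24 h later as cells with high CD29, the beta-1 integrin subunit. Cells without GFP form the Krt15-negative group and cells with GFP the Krt15-positive group, with 3 libraries each. The names therefore refer to recombination, and cells in which the Cre did not act stay in the Krt15-negative group whatever their Krt15 level. The sources used here give neither the age and sex of the mice nor the number of animals behind a library. P-values below therefore measure only the spread between libraries, part of which may be technical.

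The Hippo pathway couples cell contacts, polarity and mechanical tension to gene expression. The kinases MST1 and MST2 (Stk4 and Stk3) with the scaffold Sav1 activate LATS1 and LATS2, which phosphorylate YAP and TAZ. The phosphorylated co-activators are held in the cytoplasm by 14-3-3 proteins or degraded, and the unphosphorylated ones enter the nucleus and bind TEAD factors on DNA. In stratified epithelia YAP is known as a promoter of basal cell proliferation. Since its control is largely by phosphorylation and location, the level of Yap1 RNA is not a measure of its activity.

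The libraries differed in how many genes they detected. The Krt15-negative libraries had 3247, 6906 and 7934 genes at 1 FPKM or more (fragments per kilobase of transcript and per M mapped fragments; M, mega) and the Krt15-positive ones 8466, 9194 and 7072. The estimated depth was 29.0, 41.7 and 39.6 M fragments in the Krt15-negative and 27.6, 34.1 and 29.9 M in the Krt15-positive libraries. The Krt15-negative replicate 1 library thus stood apart in genes detected and not in estimated depth. Of 18 genes that every cell uses, 4, 2 and 1 lay below 1 FPKM in Krt15-negative replicates 1 to 3, and none did in the Krt15-positive libraries. An exact 0 may thus be a failed detection, and genes listed at 0 are given per library. Of 8 basal keratinocyte markers, all were above 1 FPKM in 5 libraries and 7 in Krt15-negative replicate 1, and their sum of 3859 to 14090 FPKM was carried by keratins. Krt15 itself overlapped between the groups. It measured 2350, 6784 and 3412 FPKM in Krt15-negative replicates 1 to 3, and 3350, 9692 and 2420 in Krt15-positive replicates 1 to 3. In Krt15-negative replicate 1 Trp63, the basal transcription factor gene, was at 0.459 FPKM (30.8 to 87.2 in the other 5), and Itgb1, which encodes the sorted CD29, was at 1.03 FPKM (10.8 to 43.3 in the other 5). Of 9 fibroblast markers 7, 7 and 9 were above 1 FPKM in Krt15-negative replicates 1 to 3, and 1, 2 and 1 in Krt15-positive replicates 1 to 3. The suprabasal markers summed to more than the basal ones in every library (7375 to 51067 FPKM over 5 genes). Krtdap was the most abundant of them by its mean but was listed at 0 in Krt15-negative replicate 3.

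Yap1, Lats1 and Amotl2 were the core genes for which every Krt15-positive library lay above every Krt15-negative one, and no core gene passed the test across all genes. Among all genes above 0 in at least 1 library, 7.39% were separated in this direction. Of the 10 core genes, 7 reached the mean of 1 FPKM required for testing, and Tead3, Tead4 and Lats1 did not. Amotl2, Tead1 and Wwtr1 had means below 1 FPKM in the Krt15-negative group and reached it through their Krt15-positive values, so the tested genes are not a fair sample of the 10. The test, limma on log2(FPKM + 1) with Benjamini-Hochberg adjustment, called 0 of 7 core genes and 0 of 9423 genes (0%). At an unadjusted p below 0.05 limma placed 300 genes (3.18%) above and 70 (0.743%) below in the Krt15-positive group, and none of them was a core gene, although Amotl2, Ctgf and Lats2 passed this unadjusted threshold in 1 or more alternatives. With quantile normalization that split was 121 and 178. Differences are given as Krt15-positive minus Krt15-negative on the log2(FPKM + 1) scale, which understates changes of low genes. The median difference of all tested genes was 0.63, and it was 0.48 with upper-quartile scaling, 0.41 with median-of-ratios scaling, 0.04 with quantile normalization and 0.03 without the Krt15-negative replicate 1 library. Each value below is to be read against that shift, which differed by level. The median was 0.72 at a mean from 1 to 5 FPKM, 0.83 from 5 to 50 FPKM and -0.08 from 50 FPKM up. In these sorted pools, fewer cells expressing a gene and less RNA per cell cannot be told apart.

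**Figure D1:**
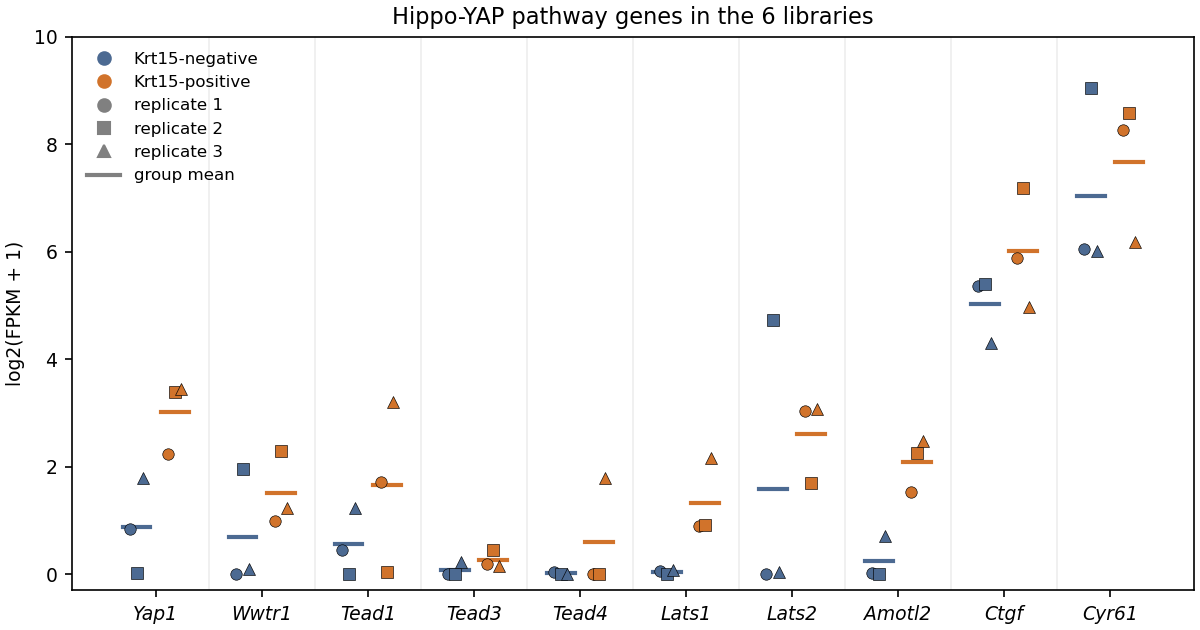
The expression of the 10 core genes, as log2(FPKM + 1) on the vertical axis, in the 3 Krt15-negative (blue) and 3 Krt15-positive (orange) libraries. Symbols mark the replicate and bars the group mean. Ctgf and Cyr61 lie above the other 8 genes in all 6 libraries, and for Yap1, Lats1 and Amotl2 the orange symbols all lie above the blue ones.

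Ctgf and Cyr61 dominated the set. Together they made up between 73.2% and 98.8% of the summed FPKM of the 10 genes in each library. By the mean over the 6 libraries the order in FPKM was Cyr61 (235), Ctgf (55.6), Lats2 (7.07), Yap1 (4.38), Tead1 (2.03), Amotl2 (1.81), Wwtr1 (1.53), Lats1 (0.883), Tead4 (0.410) and Tead3 (0.130). Cyr61 was above Ctgf in 6 of 6 libraries. From Lats2 down to Tead3, neighbours in this order had overlapping ranges over the libraries, and their order is not resolved. The number of core genes at 1 FPKM or more was 2, 4 and 4 in the Krt15-negative and 6, 6 and 9 in the Krt15-positive libraries. The library with 9 such genes, Krt15-positive replicate 3, detected fewer genes overall than Krt15-negative replicate 3 (7072 against 7934), which had 4. Krt15-positive replicates 1 and 2, with 6 such genes each, detected more genes (8466 and 9194) than any Krt15-negative library. The part of gene detection in these counts was not tested.

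Of the 2 co-activators, Yap1 lay higher in every Krt15-positive library than in any Krt15-negative one, and Wwtr1 did not. Yap1 measured 0.787, 0.0114 and 2.47 FPKM in Krt15-negative replicates 1 to 3 (mean 1.09 ± 1.25, SD, n = 3), and 3.70, 9.41 and 9.88 in Krt15-positive replicates 1 to 3 (mean 7.66 ± 3.44, SD, n = 3). The lowest Krt15-positive value was above the highest Krt15-negative value, and the estimated fragments behind these 2 values were 539 and 516. The lowest Yap1 value, that of Krt15-negative replicate 2, rests on 2.5 estimated fragments. An opposite-strand transcript, Gm20416, shares 116 exon bases with Yap1. The difference was 2.14 ± 1.08 (SE) with a 95% CI from -0.23 to 4.50 and a limma adjusted p of 0.79. This difference was larger than that of 92.8% of tested genes. It lay between 1.70 and 2.59 when single libraries were left out. It was 0.49 with quantile normalization, 3.49 with a pseudocount of 0.1 and 1.04 with a pseudocount of 5. Wwtr1, which encodes the YAP paralog TAZ, measured 0, 2.88 and 0.0740 FPKM in Krt15-negative replicates 1 to 3, against 0.987, 3.91 and 1.35 in Krt15-positive replicates 1 to 3. The groups overlapped, and Krt15-negative replicate 2 was the second highest of the 6. The Wwtr1 difference was 0.82 ± 0.95 (SE) with a 95% CI from -1.26 to 2.90 and a limma adjusted p of 0.82, and it was 0.12 with quantile normalization and 1.45 without that replicate 2 library.

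A ratio of 2 genes within a library removes a common scaling factor, apart from the effect of the added 1 FPKM. The log2 ratio of Yap1 to Wwtr1, each with 1 FPKM added, was 0.84, -1.94 and 1.69 in the Krt15-negative and 1.24, 1.08 and 2.21 in the Krt15-positive libraries. Yap1 was therefore the more abundant co-activator in 5 of 6 libraries, the exception being Krt15-negative replicate 2. No difference in the ratio beyond the replicate spread was detected (difference 1.32, exact 2-sided permutation p = 0.40, where 3 libraries against 3 cannot go below 0.10, and Benjamini-Hochberg adjusted p = 1 over the 5 ratios computed).

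The Tead factors, through which YAP and TAZ bind DNA, were low, and each overlapped between the groups. Tead1 measured 0.368, 0 and 1.33 FPKM in Krt15-negative replicates 1 to 3, and 2.27, 0.0326 and 8.18 in Krt15-positive replicates 1 to 3. It was lowest in the replicate 2 library of both groups, at 0 and 11.1 estimated fragments. The Tead1 difference was 1.09 ± 1.02 (SE) with a 95% CI from -1.15 to 3.33 and a limma adjusted p of 0.79, and it turned to -0.13 with quantile normalization. Tead3 did not exceed 0.372 FPKM in any library and was listed at 0 in 2. Tead4 was at 2.44 FPKM in Krt15-positive replicate 3, at 0.0235 FPKM in Krt15-negative replicate 1 and listed at 0 in the other 4 libraries. Tead2, the remaining Tead gene, was at 1.02 FPKM in Krt15-positive replicate 2 and listed at 0 elsewhere. Krt15-positive replicate 3 thus held the highest Tead1 and Tead4 values, and Krt15-positive replicate 2 the highest Tead2 and Tead3 values. For the within-library ratios of Tead1 to Tead3 and of Tead3 to Tead4 no difference beyond the replicate spread was detected (exact 2-sided permutation p = 0.50 and 0.90).

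The LATS kinases inhibit YAP and TAZ, and their 2 genes had different patterns. Lats1 measured 0.0467, 0.0032 and 0.0474 FPKM in Krt15-negative replicates 1 to 3, and 0.861, 0.885 and 3.46 in Krt15-positive replicates 1 to 3. The groups did not overlap, and the estimated fragments were 9.77, 0.961 and 13.5 against 171, 217 and 746. With a mean of 0.883 FPKM Lats1 was below the level required for testing. Its plain difference was 1.28, and when all genes above 0 were tested the limma unadjusted p was 0.023 and the adjusted p 0.75. Lats2, which is itself a target of YAP, measured 0, 25.5 and 0.0284 FPKM in Krt15-negative replicates 1 to 3, and 7.21, 2.23 and 7.46 in Krt15-positive replicates 1 to 3. The highest and the 2 lowest Lats2 values were all in Krt15-negative libraries. Its mean was 8.51 FPKM in the Krt15-negative and 5.63 FPKM in the Krt15-positive group, the opposite order to the means on the log2 scale. The Lats2 difference on that scale was 1.01 ± 1.41 (SE) with a 95% CI from -2.07 to 4.10 and a limma adjusted p of 0.85, moving to 2.58 when Krt15-negative replicate 2 was left out, to 0.22 when Krt15-negative replicate 1 was left out and to 0.0015 when the replicate 1 libraries of both groups were. In the annotation at hand Lats2 shares 2955 exon bases with Gm49361, a gene model on the same strand, so its value is uncertain if the authors' annotation held both. The log2 ratio of Lats1 to Lats2 was below 0 in the 3 Krt15-positive libraries (-2.14, -0.78 and -0.93). It was -4.72 in Krt15-negative replicate 2 and near 0 in the other 2, where both genes were at 0.0474 FPKM or less (exact 2-sided permutation p = 1).

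**Figure D2:**
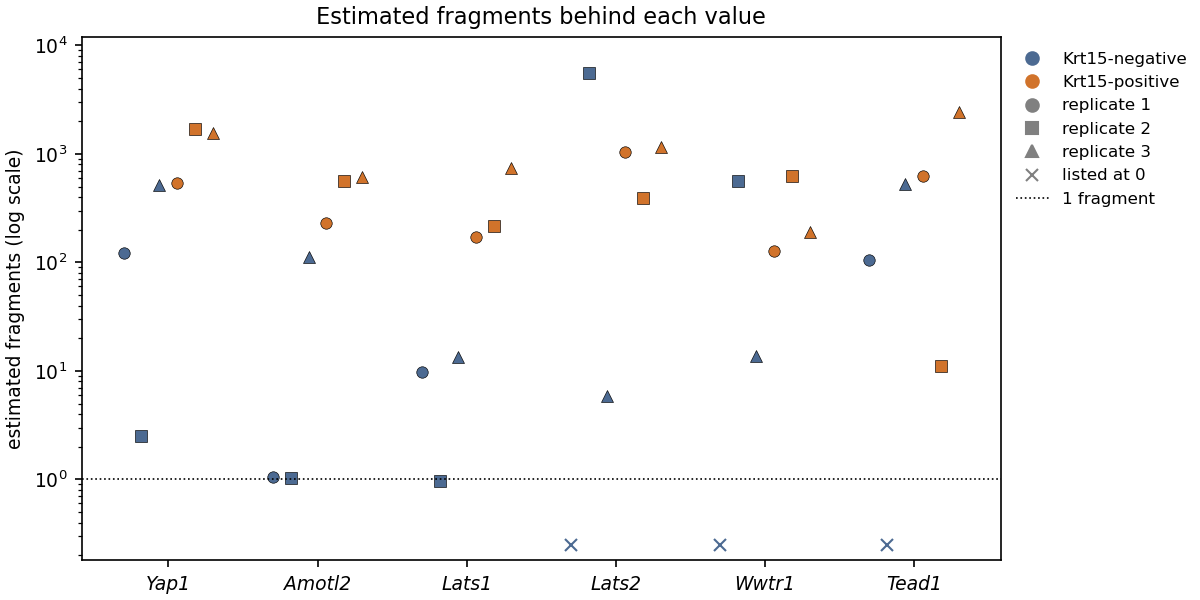
Estimated number of sequenced fragments behind the values of 6 core genes in each library, on a log scale, from each gene's longest annotated transcript. Crosses mark values listed at 0 and the dotted line marks 1 fragment. The Amotl2 values of Krt15-negative replicates 1 and 2 and the Lats1 value of Krt15-negative replicate 2 lie at about 1 fragment. The Yap1 value of Krt15-negative replicate 2 lies at 2.5. Every Krt15-positive value except that of Tead1 in replicate 2 lies above 100.

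Among the readouts of YAP, Amotl2 separated the groups while Ctgf and Cyr61 did not. Amotl2, an angiomotin family protein that is induced by YAP and in turn restrains it, measured 0.0081, 0.0056 and 0.644 FPKM in Krt15-negative replicates 1 to 3, and 1.89, 3.76 and 4.58 in Krt15-positive replicates 1 to 3. The 2 lowest values correspond to 1.05 and 1.03 estimated fragments. The Amotl2 difference was 1.84 ± 0.89 (SE) with a 95% CI from -0.10 to 3.78 and a limma adjusted p of 0.79, between 1.64 and 2.12 when single libraries were left out. It was 0.20 with quantile normalization, 4.01 with a pseudocount of 0.1 and 0.68 with a pseudocount of 5.

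Ctgf, a secreted matricellular protein, measured 40.3, 41.2 and 18.6 FPKM in Krt15-negative replicates 1 to 3, and 57.9, 145 and 30.2 in Krt15-positive replicates 1 to 3. Its 2 highest values were Krt15-positive, but Krt15-positive replicate 3 lay below 2 of the 3 Krt15-negative libraries. The Ctgf difference was 0.99 ± 0.94 (SE) with a 95% CI from -1.06 to 3.04 and a limma adjusted p of 0.79, and 0.40 without Krt15-positive replicate 2. Ctgf shares 665 exon bases with Gm15270 on the opposite strand, and the chemistry does not mark strand. Cyr61, the related matricellular protein, measured 65.2, 525 and 63.3 FPKM in Krt15-negative replicates 1 to 3, and 305, 383 and 72.0 in Krt15-positive replicates 1 to 3. The highest Cyr61 value was in Krt15-negative replicate 2, the library that also had the highest Lats2 and the lowest Yap1 value. The Cyr61 difference of 0.65 ± 0.95 (SE), with a 95% CI from -1.43 to 2.72 and a limma adjusted p of 0.86, was about that of the median gene. It was 1.65 without Krt15-negative replicate 2 and turned to -0.14 without both replicate 1 libraries. The log2 ratio of Ctgf to Cyr61 ranged from -3.64 to -0.68 in Krt15-negative and from -2.38 to -1.23 in Krt15-positive libraries (exact 2-sided permutation p = 0.80).

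The upstream sequences of Cyr61 and Amotl2 are shown because these readouts of YAP differed in pattern while both carry the core TEAD motif GGAATG, found here as its reverse complement CATTCC and set in capitals. The sequences are the 250 bases before the RefSeq start site in build GRCm38.p6, 5′ to 3′ on the gene's strand. Cyr61 lies at chr3:145649986-145650235 on the minus strand and Amotl2 at chr9:102717554-102717803 on the plus strand. Positions count back from the start site, with -1 the base before it.
Cyr61: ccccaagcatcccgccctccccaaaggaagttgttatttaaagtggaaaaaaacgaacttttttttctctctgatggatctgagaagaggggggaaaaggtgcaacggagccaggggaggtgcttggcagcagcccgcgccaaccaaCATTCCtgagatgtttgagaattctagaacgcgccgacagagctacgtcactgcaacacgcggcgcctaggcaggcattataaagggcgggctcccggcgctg
Amotl2: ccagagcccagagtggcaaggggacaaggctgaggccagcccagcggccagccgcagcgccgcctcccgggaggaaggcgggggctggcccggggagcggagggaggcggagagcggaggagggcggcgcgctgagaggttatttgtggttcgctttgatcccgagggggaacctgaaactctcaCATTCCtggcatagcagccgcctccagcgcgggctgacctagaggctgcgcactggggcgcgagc
The match began at position -103 in Cyr61 and at position -65 in Amotl2. Searching both strands for GGAATG, 12.6% of 32851 RefSeq promoter windows of this length held a match, and 14.4% of genes held one in at least 1 of their windows. Of the 7 core genes with a window in the table, 5 held a match in at least 1: Yap1, Wwtr1, Tead3, Cyr61 and Amotl2. Lats1 and Lats2 had none in these windows, and Tead1, Tead4 and Ctgf were not in the table. Across the tested genes the median difference was 0.62 for 956 genes with a match and 0.62 for 6616 without. A match is a description of the letters and not of binding.

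**Figure D3:**
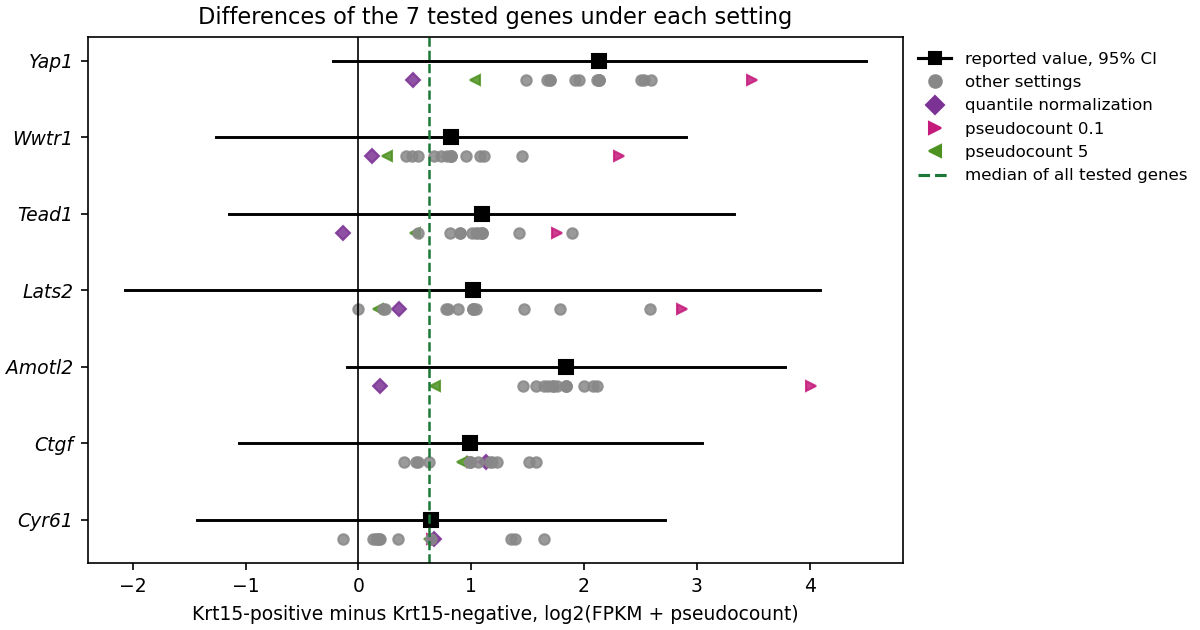
Difference between Krt15-positive and Krt15-negative libraries, on the log2(FPKM + pseudocount) scale, for the 7 tested core genes. Squares with lines are the reported values with their 95% CI, the small symbols below them are the alternatives, and the dashed line is the median of all tested genes, 0.63. All 7 intervals include 0, and quantile normalization moves Yap1 to 0.49 and Amotl2 to 0.20.

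All 7 tested core genes had a difference above 0, as did 68.6% of all tested genes, and with quantile normalization 6 of 7 did, against 51.8% of all genes. Reaching the tested level favoured genes high in either group, and Amotl2, Tead1 and Wwtr1 reached it through their Krt15-positive values. These counts and the medians that follow are therefore a description. The median difference of the tested core genes was 1.01 against 0.63 for all tested genes, and 0.36 against 0.04 with quantile normalization. Without the Krt15-negative replicate 1 library it was 1.10 against 0.03. There 8 core genes were tested, the added Lats1 again through its Krt15-positive values. Separation of this kind was more frequent among low genes. Of the tested genes 8.85% were higher in Krt15-positive libraries with no overlap and 2.44% lower. The share higher was 14.05% among the 3751 tested genes with a mean from 1 to 5 FPKM, the range that holds Yap1 and Amotl2, 7.12% from 5 to 50 FPKM and 1.32% above. Genes separated over all libraries stay separated when libraries are left out, so only added genes are informative there. Without the Krt15-negative replicate 1 library no core gene joined Yap1, Lats1 and Amotl2, where 10.8% of tested genes were separated upward and 8.82% downward. None joined without both replicate 1 libraries either, where the shares were 19.1% and 12.2%. These shares include genes already separated over all libraries, so they are not the shares of added genes. Lats1 is counted here although it was below the tested level over all libraries.

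Among further regulators of the Hippo pathway the share with a positive difference was near that of all tested genes. Of 36 genes in the list (mainly kinases, scaffolds and junction proteins), 28 were tested. Of these, 18 had a difference above 0 and 10 below (68.6% of all tested genes were above 0), and limma called 0 in either direction. The median difference was 0.77, against 0.63 for all genes, and -0.10 against 0.04 with quantile normalization, where 13 of 28 and 51.8% of all genes were above 0. Nf2, which encodes merlin, the protein that recruits LATS to the membrane, had the smallest p. It measured 0.0072, 0 and 0.785 FPKM in Krt15-negative replicates 1 to 3, and 6.10, 5.85 and 18.6 in Krt15-positive replicates 1 to 3 (3.02 ± 1.04 SE, limma adjusted p = 0.79). Stk3, the MST2 kinase, was listed at 0 in 2 Krt15-negative libraries, at 0.0086 FPKM in the third and at 1.12, 7.43 and 2.36 among Krt15-positive replicates 1 to 3 (limma adjusted p = 0.79). Both were at 0.785 FPKM or less in the Krt15-negative libraries, where an exact 0 may be a failed detection. Strn4, a striatin subunit of the phosphatase complex that opposes the MST kinases, differed by 2.57 ± 1.27 (SE) with overlapping groups. On the other side were Sav1, the MST scaffold, at 1.71, 0.875 and 6.79 FPKM against 1.85, 0.0116 and 0 (-1.26 ± 0.97 SE, limma adjusted p = 0.79), the LIM protein gene Wtip (-0.67 ± 1.18 SE) and the angiomotin gene Amotl1 (-0.36 ± 1.03 SE). Sav1 shares 1336 exon bases with Atl1 on the opposite strand. Groups did not overlap for 5 of the 28 (8.85% of all tested genes were separated upward), all higher in Krt15-positive libraries. These were Nf2, Stk3 and, named after their values were seen, Stk4 (MST1), the LATS inhibitor gene Limd1 and the striatin gene Strn3. Nf2, Stk3 and Stk4 had Krt15-negative means of 0.264, 0.0029 and 0.741 FPKM and reached the tested level through their Krt15-positive values. The count is thus a description. From 1 to 5 FPKM, the range of Stk3 and Stk4, 14.05% of tested genes were separated upward.

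Of the 20 partners of YAP, TAZ and the Tead factors, 15 were tested, with 12 differences above 0 and 3 below (68.6% of all tested genes were above 0), none called by limma, and a median of 0.63, the same as for all genes. With median-of-ratios scaling 9 of 15 were above 0, against 61.4% of all genes. With quantile normalization 11 of 15 were, against 51.8% of all genes, and the median was 0.58 against 0.04. Vgll4, a competitor of YAP for Tead factors, measured 0, 9.25 and 1.10 FPKM against 13.3, 9.66 and 11.8 (2.17 ± 1.21 SE, limma adjusted p = 0.79). It was the 1 gene of the 15 tested whose groups did not overlap (8.85% of all tested genes were separated upward). The transcription factor gene Runx1 (1.37 ± 0.95 SE) and the 14-3-3 gamma gene Ywhag (1.57 ± 1.23 SE) followed. Below 0 were Smad3 of the TGF-beta pathway (-0.90 ± 1.13 SE), the 14-3-3 zeta gene Ywhaz (-0.28 ± 0.59 SE) and the co-activator gene Ncoa3 (-0.21 ± 1.16 SE). Runx1 and Ncoa3 share 106 and 154 exon bases with genes on the opposite strand. Ywhaz, whose product binds phosphorylated YAP, measured 240, 264 and 156 FPKM against 142, 227 and 169, far above Yap1 in every library.

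Of the 20 further target genes, 14 were tested, 11 had a difference above 0 and 3 below (68.6% of all tested genes were above 0), none was called by limma, and the median was 0.86. With quantile normalization the median was -0.12 and 7 of 14 were above 0, against 51.8% of all genes. Gadd45a, a growth-arrest gene, measured 0.0303, 0.0210 and 0.596 FPKM against 32.3, 21.0 and 32.2. Its difference of 4.61 ± 1.07 (SE), at a limma adjusted p of 0.79, was larger than that of 99.99% of tested genes. With a Krt15-negative mean of 0.216 FPKM, Gadd45a reached the tested level through its Krt15-positive values, so this rank is a description. It shares 337 exon bases with an opposite-strand transcript, and as a gene of several stress pathways it is not specific to YAP. F3, tissue factor, measured 3.91, 68.2 and 61.7 FPKM against 565, 55.0 and 303 (2.94 ± 1.19 SE, limma adjusted p = 0.79), with overlap through Krt15-positive replicate 2. Ajuba, a LIM protein that also inhibits LATS and stands in both lists, differed by 1.89 ± 1.48 (SE). Birc5, survivin, was on the lower side at 259, 352 and 150 FPKM against 85.6, 251 and 59.6 (-1.13 ± 0.73 SE), as were Fjx1 (-1.12 ± 1.39 SE) and the membrane repair gene Myof (-0.87 ± 1.14 SE). Ankrd1, a widely used YAP target, and Dock5 were at or near 0 throughout.

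**Figure D4:**
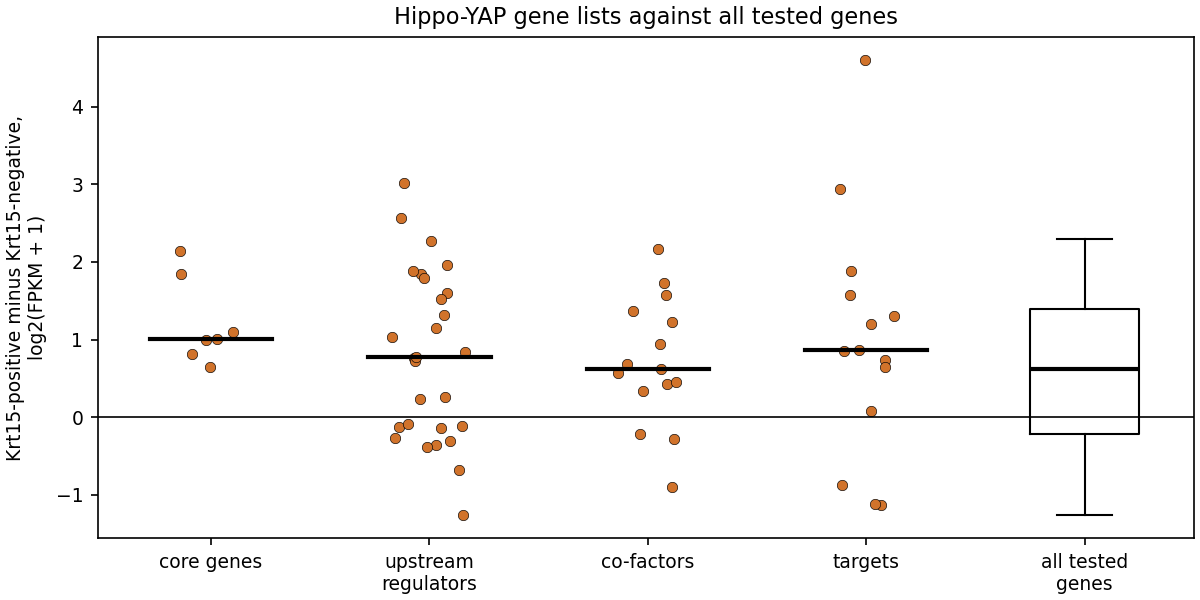
Difference between Krt15-positive and Krt15-negative libraries, on the log2(FPKM + 1) scale, for each tested gene (points). The lists are the core genes, the further Hippo regulators (labelled upstream regulators), the co-factors and the targets. Bars mark medians, and the box shows the quartiles of all 9423 tested genes with whiskers from the 5th to the 95th percentile. The medians of the 4 lists, 1.01, 0.77, 0.63 and 0.86, lie within the box.

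Ctgf and Cyr61 are also abundant in mesenchymal and endothelial cells, so markers of other cells are given beside them. The summed level of 9 fibroblast markers was 176, 417 and 788 FPKM in the Krt15-negative and 167, 179 and 71.3 FPKM in the Krt15-positive libraries. In the Krt15-positive libraries nearly all of it was Dcn (167, 176 and 71.1 FPKM), and each of the other 8 was at 3.51 FPKM or less. Col1a1, Col1a2, Col3a1, Dpt, Mfap5 and Vim were each lower in every Krt15-positive library than in any Krt15-negative one. Mfap5, a matrix microfibril gene, measured 38.8, 49.3 and 103 FPKM in Krt15-negative replicates 1 to 3 and did not exceed 0.0744 in the Krt15-positive libraries. Vim, the mesenchymal intermediate filament gene, measured 72.5, 43.2 and 35.5 FPKM against 0, 3.51 and 0.0744. The library with the highest fibroblast sum, Krt15-negative replicate 3, had the lowest Ctgf and Cyr61 values. Its Cyr61 value was close to that of Krt15-negative replicate 1 (63.3 against 65.2 FPKM). Krt15-negative replicate 2, with the second highest fibroblast sum, had the highest Cyr61 value (525 FPKM). Of 6 endothelial markers, Cdh5, Cldn5, Emcn and Tie1 were at 0 in all libraries and the sum was above 0 in Krt15-negative replicate 3 alone (4.03 FPKM). The 7 muscle markers summed to between 0.331 and 10.5 FPKM. The 8 immune markers summed to 606, 549 and 987 FPKM against 7316, 162 and 146, the highest sum being mostly Lyz2 (7279 FPKM). Each of the other immune markers had its highest value in a Krt15-negative library. Of these, Ptprc and Tyrobp (203, 124 and 31.0 FPKM against 0, 20.2 and 27.6) were lower in every Krt15-positive library, and the rest overlapped. The 4 markers of nerve and glia summed to 0.735 FPKM at most. The part of these cells in the values of the pathway genes was not tested.

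By Pearson's r of log2(FPKM + 1) over the 6 libraries, the tested genes most like Yap1 were Nfatc3, a calcium-regulated transcription factor gene (r = 0.987), Trafd1 (0.984) and the nuclear export gene Xpo7 (0.983). Nfatc3 measured 1.27, 0.771 and 1.95 FPKM against 2.34, 2.88 and 3.57. Those most like Wwtr1 were Grsf1, an RNA-binding protein gene (0.991), the receptor gene Tnfrsf19 (0.989) and Ankrd13a (0.988). Over these 6 libraries, which differ in genes detected, 270 of 9422 genes reached an r above 0.9 with Yap1 and 203 with Wwtr1, so these names are a description of rank only.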

How the data were processed

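RNA of 6 libraries (3 per group) was profiled from sorted cells with the SMART-Seq v4 kit without RNA extraction, per the labels' protocols. The authors deposited FPKM values for 24043 rows; the table names them counts, but they are not whole. STAR 2.5, Cufflinks 2.2.1, DESeq2 and mm9 are named, per the submitters' processing notes, with no role given. For annotation and strand setting the sources used here name nothing. Rows with a date in place of a symbol (27) were left out.

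The scale of analysis was log2(FPKM + 1). The 9423 genes whose mean reached 1 FPKM entered 1 fit of all libraries by group, made by limma (version 3.58.1, R version 4.3.3) allowing for a trend of variance with level. P-values were adjusted by Benjamini-Hochberg over all genes and called below 0.05. Fragments were estimated from the FPKM of single fragments in 2172 genes with 1 annotated transcript of at least 1500 bp (GENCODE M21), and are approximate. They cover counting error only, since PCR copies are not independent molecules. Gene symbols and promoters came from RefSeq (GRCm38.p6).

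The core genes and lists were chosen with earlier results of these data known. All core genes and Tead2 are named, with the 3 genes of smallest p on each side of each further list and the 3 most like Yap1 and Wwtr1. Alternatives were pseudocounts, filters, scalings, library weights, a replicate block and libraries left out; the counts of non-overlapping genes without libraries were added after seeing the data.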

Additional observations from a re-analysis of the deposited data

How the results depend on the processing

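No core gene was called in any of the 16 alternatives, and 0 genes overall were called with limma in 14 of them. The exceptions were library weights, with 8 genes, and leaving out single libraries, where the number called ranged from 0 to 1 (1 without Krt15-negative replicate 2). At an unadjusted p below 0.05 limma gave 370 genes, 572 without a filter, 843 with library weights, 590 without Krt15-negative replicate 3 and 169 without Krt15-positive replicate 2. Core genes were below that unadjusted threshold in single alternatives. These were Amotl2 with a pseudocount of 0.1 (0.0495), without a filter (0.0247) and with at least 1 FPKM in 3 or more libraries (0.0205), Lats1 without a filter (0.023), Ctgf with library weights (0.0406) and Lats2 without Krt15-negative replicate 2 (0.0466), where the limma adjusted p lay between 0.54 and 0.76. The log2 differences of Yap1, Wwtr1, Lats2, Ctgf and Amotl2 kept their direction in all 16 alternatives, with lowest values of 0.49, 0.12, 0.0015, 0.40 and 0.20, while the mean FPKM of Lats2 had the opposite order. Those of Tead1 (-0.13 with quantile normalization) and Cyr61 (-0.14 without both replicate 1 libraries) turned. Among ratios, Lats1 to Lats2 turned from 0.26 to -1.33 and Ctgf to Cyr61 from 0.35 to -0.47 without Krt15-negative replicate 2, and Tead3 to Tead4 from -0.39 to 0.26 without Krt15-positive replicate 3. Leaving out single libraries moved these differences from -1.33 to 1.07 for Lats1 to Lats2, from -0.47 to 1.01 for Ctgf to Cyr61 and from -0.79 to 0.26 for Tead3 to Tead4. The cause was not tested.

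The labels give the groups the same replicate numbers and shared sample codes, without saying what these mark. Deviations from the group means correlated at 0.13, 0.17 and 0.0089 for the numbers 1 to 3. Krt15-negative replicates 1 and 2 correlated best with their own number, and replicate 3 did not (0.029 with Krt15-positive replicate 2). The libraries were therefore not treated as paired, although such correlations cannot tell whether libraries that share a code are related. Compared within numbers, Yap1, Wwtr1, Tead1, Lats1, Ctgf and Amotl2 were higher in the Krt15-positive library of all 3 (as were 20.9% of tested genes), Tead3, Lats2 and Cyr61 of 2 and Tead4 of 1. With the replicate block 0 genes were called, and the limma adjusted p of Yap1 was 0.74 at the same difference of 2.14.

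The lowest Amotl2 and Lats1 values rest on about 1 estimated fragment, and the lowest Yap1 value on 2.5. The size of the differences of these genes is thus not resolved at this depth. Limma's precision is limited by the 3 libraries per group.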

Other observations

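Across libraries, the ranks of Yap1 and Amotl2 among all genes had another order than their FPKM. Yap1 lay above 86.1%, 65.3% and 72.7% of all genes in Krt15-negative replicates 1 to 3 and above 75.2%, 79.3% and 82.9% in the Krt15-positive libraries. By rank the Krt15-negative replicate 1 library was thus the highest for Yap1, although its FPKM was the second lowest. In that library 17605 of 24016 genes were listed at 0, against 12517 to 15111 in the other 5. Amotl2, with an estimated 1.05 fragments there, still lay above 75.4% of genes. Cyr61 ranks stayed near the order of its FPKM, from 93.8% at 63.3 FPKM to 98.8% at 525 FPKM, as did those of Ctgf, from 87.9% at 18.6 FPKM to 96.6% at 145 FPKM. Quantile normalization gives libraries a common distribution by rank, and under it the Yap1 and Amotl2 differences were 0.49 and 0.20.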
